A study of Mus musculus with 12 samples.

Results

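Xcl1 cells were CD8 T cells of the pancreatic islets that carried mRNA of the chemokine gene Xcl1 without the exhaustion receptor gene Havcr2 or the granzyme genes Gzma and Gzmk. A cell was taken where it held at least 500 gene UMIs (unique molecular identifiers, 1 per captured mRNA molecule), at most 8% mitochondrial UMIs, a CD4 antibody count under 20 and at least 2 UMIs of Cd8a and Cd8b1 together, which gave 4632 CD8 cells of 27423 barcodes. Xcl1 cells were then selected on their own measured UMIs: 372 cells held at least 2 Xcl1 UMIs and 0 UMIs of Havcr2, Gzma and Gzmk, which was 8.03% of the CD8 cells (exact 95% binomial interval 7.26 to 8.85%, counting error only). They numbered 109, 102, 75 and 86 in replicates 1 to 4, or 8.62 ± 3.43% of each replicate's CD8 cells (SD, n = 4).

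The T cells came from islets of female NOD mice, an inbred strain that develops autoimmune diabetes spontaneously, taken pre-diabetic at 12 weeks of age. Live TCRβ-positive cells were sorted and stained with antibodies to CD62L, CD11a, CD4 and CD8b that carry DNA barcodes, and mRNA, antibody tags and T cell receptor transcripts were sequenced from the same droplets in 4 biological replicates. There was no other genotype or treatment, so all comparisons were between cells of 1 library. Whether a replicate was 1 mouse or several pooled is not stated in the labels, so p-values measure the spread between these 4 samples.

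XCL1 is a chemokine made by activated CD8 T cells and natural killer cells, and its receptor XCR1 is carried by the type 1 conventional dendritic cells that present antigen to CD8 T cells. In chronic infection, tumours and autoimmunity, Xcl1 mRNA is known from stem-like or precursor CD8 cells, which keep the transcription factor TCF1 (gene Tcf7), divide to renew themselves and give rise to effector and exhausted cells. Havcr2 encodes TIM-3, a marker of exhausted cells, and granzymes A and K are proteases of effector cells.

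The 4 libraries held 4136 to 8718 barcodes and 26861163 to 37834174 gene UMIs. Libraries shared 378 of 27044 barcode sequences, 13 of the 372 Xcl1 cells had a barcode sequence also seen in another library, and 0 had one that was an Xcl1 cell in more than 1 library. The comparison population was the other CD62L-low CD8 cells, with a CD62L antibody count of at most 3, which numbered 343, 470, 770 and 744. CD62L is the lymph node homing receptor that naive cells carry and activated cells shed. The Xcl1 cells themselves were taken at any CD62L count, and 293 were CD62L-low and 79 were above that level. No count of dead or broken droplets was made, but a CD11a antibody count under 20 was seen in 0.917, 0.980, 13.3 and 6.98% of Xcl1 cells, against 3.79, 5.11, 39.1 and 25.7% of the other CD62L-low cells of replicates 1 to 4.

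The label was checked against its markers, which are given without a test because Xcl1 chose the cells. Levels are summed UMIs of a population scaled to the same total of gene UMIs (counts-per-million, CPM), listed for replicates 1 to 4. Xcl1 stood at 1172, 1945, 1807 and 2741 CPM in Xcl1 cells, against 458, 399.6, 349 and 362 CPM in the other CD62L-low cells. Cd160, a receptor for the TNF receptor family member HVEM, stood at 198, 189, 144 and 133 CPM, against 47.6, 64.7, 35.0 and 61.8 CPM. Crtam, an adhesion receptor of activated cytotoxic T cells, stood at 138, 223, 240.1 and 267 CPM, against 95.1, 96.5, 73.5 and 67.6 CPM. In all 3 genes every Xcl1 population lay above every other CD62L-low population.

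The remaining markers of the label went the other way. Eomes, a T-box transcription factor, stood at 92.9, 163, 268 and 195 CPM in Xcl1 cells, against 137.5, 206, 301 and 291 CPM in the other CD62L-low cells. Klrc1, which encodes the inhibitory receptor NKG2A, stood at 99.8, 112, 257 and 210.1 CPM, against 127, 133, 259 and 309 CPM. Both were lower in CPM in Xcl1 cells in each replicate, so summed levels of Eomes and Klrc1 do not mark these cells against that population. The shares of cells with a UMI of either gene, given further below, were mixed.

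The cells differed widely in how much Xcl1 mRNA they held. The median was 6, 7, 3 and 8 Xcl1 UMIs per cell and the highest cell held 115, 207, 181 and 284. At the threshold, 77 cells held exactly 2 UMIs, while 106 held 3 to 5, 107 held 6 to 20 and 82 held 21 or more. The 38 cells with most Xcl1 held 56.2% of all Xcl1 UMIs of the population. The 77 cells just inside the threshold had 84.1 CPM of Cd160, 293 of Lag3 and 181 of Cd200, and the 155 cells just outside it, with 1 Xcl1 UMI, had 56.7, 233 and 90.02 CPM. Crtam, Eomes, Klrc1, Pdcd1 and Tnfrsf9 were also higher just inside. Tcf7 went the other way, with 311 CPM just inside and 456 CPM just outside. On the other thresholds, 76 cells fell just outside by 1 UMI of Gzma or Gzmk and 6 by 1 UMI of Havcr2.

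Sequencing depth and the CD11a antibody count were higher in Xcl1 cells than in the other CD62L-low cells of the same library. The median was 8983, 5828.5, 5570 and 8170 gene UMIs per Xcl1 cell, against 4556, 4784, 3569 and 3641.5 in the other cells. Xcl1 cells were deeper in each library, with a mean log2 ratio of 0.77 ± 0.39 (SD, n = 4; exact two-sided sign-flip permutation p = 0.125, the smallest that 4 libraries allow). The rule asks for 2 UMIs of Xcl1 and so favours deep cells, which is why levels are given in CPM and also for depth-matched cells.

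CD11a, the integrin chain of LFA-1 that rises on antigen-experienced T cells, had median antibody counts of 411, 339.5, 351 and 342 on Xcl1 cells, against 147, 174, 100 and 239 on the other CD62L-low cells. Every Xcl1 value was above every value of those cells. The mean log2 ratio was 1.19 ± 0.57 (SD, n = 4; exact permutation p = 0.125, higher in 4 of 4 replicates). Leaving out cells with counts under 20 in either population gave 0.68 ± 0.59, also higher in 4 of 4 (exact permutation p = 0.125). Among cells with UMIs inside the interquartile range of the Xcl1 cells of that library, the log2 ratio was 0.48 ± 0.46, higher in 3 of 4 replicates (exact permutation p = 0.25). CD8 cells with 2 or more Gzma and Gzmk UMIs had CD11a medians of 428, 298, 345 and 368.5. These were above Xcl1 cells in replicates 1 and 4 and below them in replicates 2 and 3. CD8 cells with Havcr2 had 462, 374, 379 and 394.5, above Xcl1 cells in each replicate. High CD11a did not set Xcl1 cells apart from these 2 populations, and the differences were not tested. CD8b antibody was found on 80.7, 80.4, 69.3 and 74.4% of Xcl1 cells, against 80.5, 68.1, 49.1 and 58.3% of the other CD62L-low cells. The mean difference was 12.2 ± 8.6 percentage points (exact permutation p = 0.125), and it was 0.70 points in depth-matched cells.

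**Figure D1:**
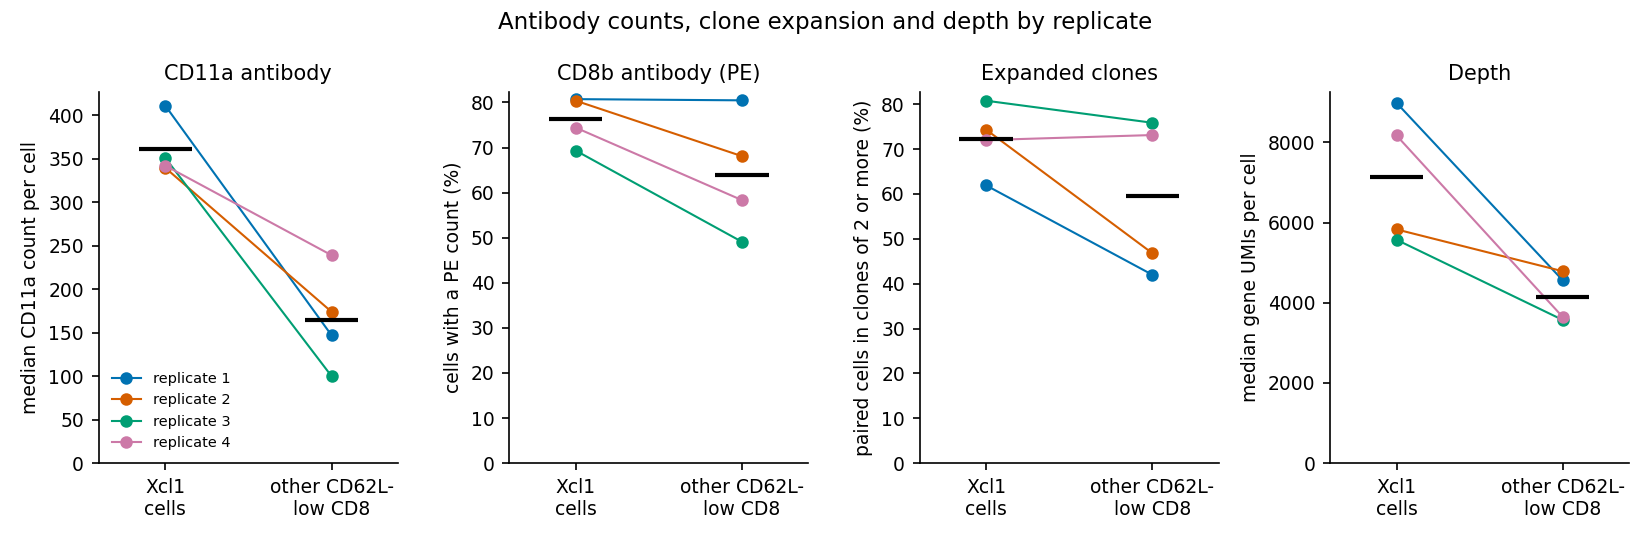
Panels plot, for each replicate, the median CD11a antibody count, the percentage of cells with CD8b antibody, the percentage of receptor-paired cells in expanded clones and the median gene UMIs, with Xcl1 cells on the left and other CD62L-low CD8 cells on the right; lines join replicates and black bars are means of 4. All 4 lines fall to the right for CD11a (361 against 165 on average) and for UMIs, while 1 line for expanded clones rises to the right.

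Within the Xcl1 cells, the 79 with a CD62L count over 3 and the 293 CD62L-low ones are given side by side. Xcl1 stood at 717, 484, 1648 and 830 CPM in the CD62L-high Xcl1 cells of replicates 1 to 4, against 1421, 2210, 1897 and 3288 CPM in the CD62L-low ones. Ccr7, the receptor for lymph node entry, stood at 153, 373, 156 and 185 CPM, against 100.2, 112, 35.2 and 114 CPM. The share in expanded clones was 41.4, 42.9, 63.6 and 33.3%, against 72.7, 77.6, 85.4 and 80.5%. These values rest on 39, 9, 17 and 14 CD62L-high cells and were not tested.

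T cells that descend from 1 cell share the same receptor, so receptor sequences show which Xcl1 cells were related. A clonotype is 1 pair of TRA and TRB CDR3 nucleotide sequences in 1 library, and a clone is called expanded when at least 2 CD8 cells carry it. The share of receptor-paired Xcl1 cells in expanded clones was 61.9, 74.3, 80.8 and 72%, against 42.0, 46.8, 75.9 and 73.1% of the other CD62L-low cells. The difference was 19.9, 27.6, 4.92 and -1.12 points, with a mean of 12.8 ± 13.2 points (SD, n = 4; exact permutation p = 0.25), so the spread between replicates was as large as the difference. With CD62L-low Xcl1 cells alone the mean difference was 19.6 points. With clones counted by the TRB sequence alone it was 14.7 ± 12.3 points, higher in 4 of 4 replicates (exact permutation p = 0.125).

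The 260 receptor-paired Xcl1 cells carried 141 clonotypes, 66 of them expanded. Of the 66, 38 (57.6%) also held at least 1 CD8 cell with 2 or more Gzma and Gzmk UMIs, in counts of 10 of 17, 5 of 17, 9 of 16 and 14 of 16 clones by replicate. Of the same 66, 22 (33.3%) held a cell with Havcr2, and in 4 all CD8 cells were Xcl1 cells. The shares over all expanded CD8 clones were not counted, so these numbers do not show whether clones with Xcl1 cells differ from other expanded clones. Xcl1 cells made up 75 of 1691 paired CD8 cells with an unexpanded receptor (4.44%), 46 of 320 in clones of 2 to 4 cells (14.4%), 53 of 289 in clones of 5 to 19 cells (18.3%) and 86 of 610 in clones of 20 or more (14.1%). For the cells with Gzma and Gzmk the shares over the same sizes were 9.64, 39.4, 48.4 and 64.9%. The Xcl1 share in the largest clones was uneven between libraries, at 33.3, 41.2, 8.99 and 8.72% in replicates 1 to 4. All these shares are of paired CD8 cells at any CD62L count. With only CD62L-low cells and the Xcl1 cells counted, Xcl1 cells were 12.9% of cells with an unexpanded receptor. Over the larger clone sizes they were then 20.9, 20.3 and 16.2%, a smaller rise with expansion.

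The receptors of the clones with most Xcl1 cells are shown because 3 of them recurred, whole or in part, in another library. The largest, in replicate 1, paired TRAV16N and TRAJ37 with TRBV3 and TRBJ1-2, and 13 of its 36 CD8 cells were Xcl1 cells while 17 held Gzma and Gzmk. A clone of 66 cells in replicate 4, with 5 Xcl1 cells and 52 Gzma and Gzmk cells, had the same TRA sequence letter for letter. Their TRB sequences differed at 5 of 42 bases, in capitals, and did not encode the same amino acids.
TRA CDR3 in both: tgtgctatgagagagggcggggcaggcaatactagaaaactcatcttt
TRB CDR3 in replicate 1: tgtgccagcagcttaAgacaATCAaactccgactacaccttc
TRB CDR3 in replicate 4: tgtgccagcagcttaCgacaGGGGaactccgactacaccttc

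In replicate 3 the clone with most Xcl1 cells held 12 of them among 143 CD8 cells, of which 107 held Gzma and Gzmk and 35 held Havcr2. It carried a pair of TRA chains and 1 TRB chain of TRBV16 and TRBJ1-4. The second clone of that replicate, with 6 Xcl1 cells among 86, had the same TRB sequence and the TRAV6N-7 chain of that pair letter for letter. It was counted as another clone under the definition by paired chains, here and in the plot of clone makeup, and whether the pair is 1 clone was not tested. A clone of 23 cells in replicate 4, with 3 Xcl1 cells, had the same V and J genes in TRA (TRAV5-4, TRAJ50) and TRB. The TRA sequences differed at 1 of 42 bases and the TRB sequences at 2 of 42, in capitals, and both chains encoded the same amino acids.
TRA CDR3 in replicate 3: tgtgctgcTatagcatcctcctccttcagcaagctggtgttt
TRA CDR3 in replicate 4: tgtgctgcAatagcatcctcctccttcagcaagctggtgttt
TRB CDR3 in replicate 3: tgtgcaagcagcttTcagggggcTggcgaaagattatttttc
TRB CDR3 in replicate 4: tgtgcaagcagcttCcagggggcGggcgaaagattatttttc

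Another shared chain joined TRAV16N to TRAJ42, the alpha chain rearrangement known from NOD CD8 cells that recognise the islet protein IGRP. Recognition was not measured here. Clones of 29 CD8 cells in replicate 3 (5 Xcl1 cells) and 20 in replicate 4 (3 Xcl1 cells) had it with TRBV13-3 and different TRBJ genes.
TRA CDR3 in both: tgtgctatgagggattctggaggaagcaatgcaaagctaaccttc
Receptors of this type, TRAV16 with TRAJ42, were found in 2, 3, 8 and 9 paired Xcl1 cells of 84, 74, 52 and 50, against 3, 14, 49 and 69 of 243, 310, 381 and 398 other CD62L-low cells. Counted by clonotype, TRAV16 of any kind was in 12.2, 19.4, 19.2 and 33.3% of Xcl1 clonotypes, against 11.9, 13.8, 16.2 and 16.6%, with overlap between the populations.

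**Figure D2:**
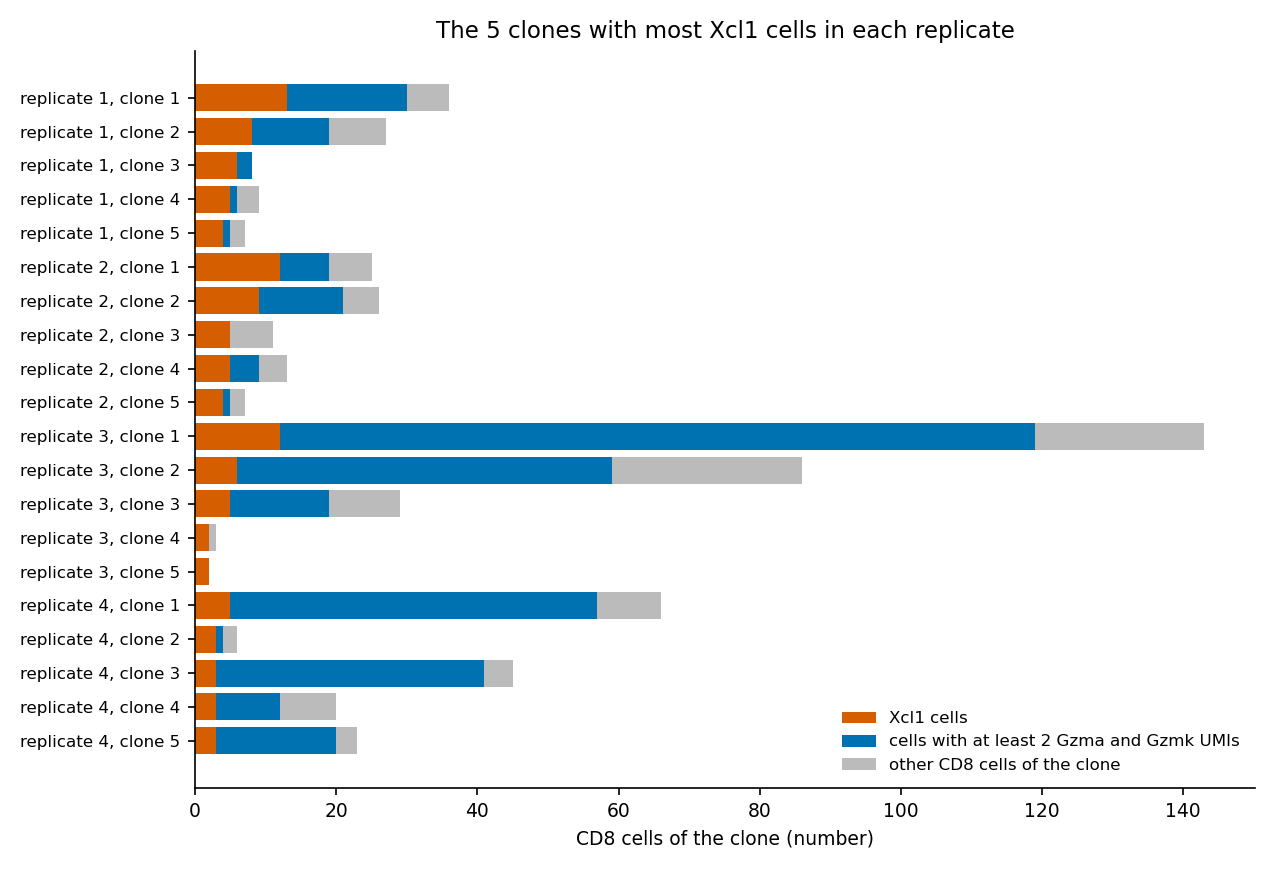
Stacked bars give the number of CD8 cells in the 5 clones with most Xcl1 cells of each replicate, divided into Xcl1 cells, cells with at least 2 Gzma and Gzmk UMIs and other cells. The leading clone of replicate 3 has 12 Xcl1 cells among 143, and the leading clone of replicate 1 has 13 among 36.

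In gene expression, the Xcl1 cells stood out from the other CD62L-low cells by high mRNA for recent receptor signalling, TNF family ligands and costimulatory receptors. Their mRNA was low for granzyme B, CD39, the chemokine receptors Ccr2 and Cxcr6, recirculation and interferon response. Of 9365 genes tested, 226 were higher (2.41%) and 243 lower (2.59%) in Xcl1 cells at an adjusted p under 0.05 (5.01% in either direction; edgeR quasi-likelihood test on summed UMIs with the library as a block, Benjamini-Hochberg adjustment). The median over all genes was 0.00 on the log2 scale. Genes expressed together with Xcl1, Gzma, Gzmk or Havcr2 in the same cells share in the choice of the cells, so their p-values are not independent of the rule. Without the block 224 genes were called, with 42 of the named and listed genes losing their call, among them Igfbp4 and Tgtp1, and with DESeq2 276, and the count was 206 without replicate 2 and 287 without replicate 4. Without dividing cells, those with at least 2 UMIs over Mki67, Top2a, Birc5, Cdk1 and Ccna2, it was 1059. Such cells were 26.6, 18.6, 21.3 and 39.5% of Xcl1 cells, against 15.5, 14.0, 33.1 and 29.8% of the others. These shares rest on raw UMIs without a correction for depth, and Xcl1 cells were deeper in each library.

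The steepest rise was in Nrn1, which encodes neuritin, a small membrane-anchored protein first known from neurons. Nrn1 stood at 210.2, 325, 143 and 169 CPM in Xcl1 cells, against 36.7, 41.1, 26.5 and 18.3 CPM in the other CD62L-low cells (log2 fold change 2.79 ± 0.15 SE, edgeR adjusted p = 5.6e-08). The lowest Xcl1 value was above the highest of the others by a wide margin. Nrgn, encoding the calmodulin-binding protein neurogranin, stood at 219, 137, 90.5 and 115 CPM, against 43.9, 31.1, 11.8 and 9.45 CPM (log2 fold change 2.67 ± 0.22 SE, edgeR adjusted p = 4.2e-05). Its populations did not overlap either, but its call was lost without the block and among clonotypes found in both populations. Penk, the enkephalin precursor, stood at 60.2, 119, 237 and 227 CPM, against 16.1, 19.3, 108 and 35.9 CPM (log2 fold change 2.06 ± 0.26 SE, edgeR adjusted p = 0.0039), with overlap between replicates, and lost its call under 4 alternatives. Hivep3, a zinc finger DNA-binding protein, had 170.3 ± 60.7 CPM, against 34 ± 8.63 CPM (SD, n = 4; log2 fold change 2.31 ± 0.18 SE).

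Genes switched on by the T cell receptor rose together. Xcl1, a chemokine gene of activated cells, chose the cells, and the part of that choice in these rises was not tested. Of 18 tested, 11 were higher and 0 lower, with a median log2 fold change of 0.77, against 2.41% of all genes higher. Nr4a3, a nuclear receptor induced within hours of antigen contact, stood at 59.4, 83.5, 50.4 and 59.1 CPM in Xcl1 cells, against 30.6, 24.6, 19.9 and 24.6 CPM in the others (log2 fold change 1.34 ± 0.16 SE, edgeR adjusted p = 0.0002). Spry1, which encodes an inhibitor of growth factor and ERK signalling, stood at 57.1, 78.4, 47 and 30.6 CPM, against 14.1, 23.7, 7.52 and 12.4 CPM (log2 fold change 1.89 ± 0.21 SE, edgeR adjusted p = 6.1e-05). In both genes the 4 Xcl1 values lay above the 4 others. Egr2 (1.46 ± 0.21 log2 fold change with SE), Egr3 (1.56 ± 0.38) and Rel (0.85 ± 0.13), factors of NFAT and NF-κB signalling, also rose, as did Irf4 (0.93 ± 0.22), Irf8 (0.84 ± 0.19), Nfkbia (0.85 ± 0.15), Bcl2a1b and Bcl2a1d. Bcl2a1b and Bcl2a1d are near-identical copies whose reads may be split. Irf4 lost its call without replicate 2, 3 or 4, Irf8 without replicate 2 or 4, Egr3 without replicate 1 or 4, Bcl2a1b without replicate 2 and Bcl2a1d without replicate 1 or 2. Rel stood at 0.41 and was not called with 1 cell per clonotype. Nr4a1, Nr4a2, Egr1, Myc, Nfkbid, Cd69 and Dusp2 did not pass the test.

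Ligands that T cells use to signal to dendritic cells and B cells followed. Tnfsf11, which encodes RANKL, stood at 35, 58.3, 47 and 28.5 CPM in Xcl1 cells, against 14.1, 10.3, 5.83 and 9.03 CPM (log2 fold change 2.10 ± 0.26 SE, edgeR adjusted p = 0.00025), with no overlap. Of 10 cytokine and TNF ligand genes tested, 4 were higher and 0 lower. The others were Lta, lymphotoxin alpha (0.94 ± 0.17), Tnfsf14, LIGHT (1.17 ± 0.22), and Tnfsf8, the CD30 ligand (1.28 ± 0.27, lost without replicate 4). With 1 cell per clonotype Lta (0.69) and Tnfsf14 (0.63) were not called. Ifng, Tnf, Ltb, Il21, Tnfsf9 and Tgfb1 did not pass. Pdcd1lg2, which encodes the PD-1 ligand PD-L2, stood at 36.6, 29.2, 38.3 and 33.8 CPM, against 6.85, 6.22, 5.45 and 10.5 CPM (log2 fold change 2.24 ± 0.24 SE, edgeR adjusted p = 4.2e-05), at low levels in both populations but without overlap.

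Among costimulatory receptors 4 of 16 rose and 1, Cd2, fell. Tnfrsf4, which encodes OX40, stood at 79.97, 116, 90.5 and 120.3 CPM in Xcl1 cells, against 29, 29.9, 25 and 33.2 CPM (log2 fold change 1.79 ± 0.14 SE, edgeR adjusted p = 3.7e-06). Tnfrsf9, which encodes 4-1BB, stood at 146, 205, 210.5 and 372 CPM, against 74.2, 67.5, 105 and 78.1 CPM (log2 fold change 1.49 ± 0.21 SE, edgeR adjusted p = 0.0032). Both were above the other cells in all replicates with no overlap, and Tnfrsf9 lost its call only among clonotypes held by both populations, at a log2 fold change of 1.18. Icos (0.62 ± 0.16) and Slamf1 (0.77 ± 0.20) rose less, and each lost the call without 3 of the 4 replicates in turn, as Cd2 (-0.45 ± 0.12) did. Cd83, a surface protein of activated lymphocytes, stood at 92.2, 80.4, 45.2 and 57 CPM, against 20.2, 22.4, 11.3 and 14.3 CPM (log2 fold change 2.01 ± 0.16 SE, edgeR adjusted p = 3.7e-06), again without overlap. Cd83, Irf8, Cd200, Id3 and Slamf6 are also expressed in B cells, and summed B cell markers stood at 148, 68.4, 78.3 and 14.8 CPM in Xcl1 cells, against 49.6, 75.6, 52.4 and 36.8 CPM. Their part in these rises was not tested. The cytokine receptor chain Il2ra rose (1.55 ± 0.31, lost without replicate 2), while Ifngr1, Il10ra and Il6ra fell, Il6ra with its call lost without replicate 1, 2 or 4.

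**Figure D3:**
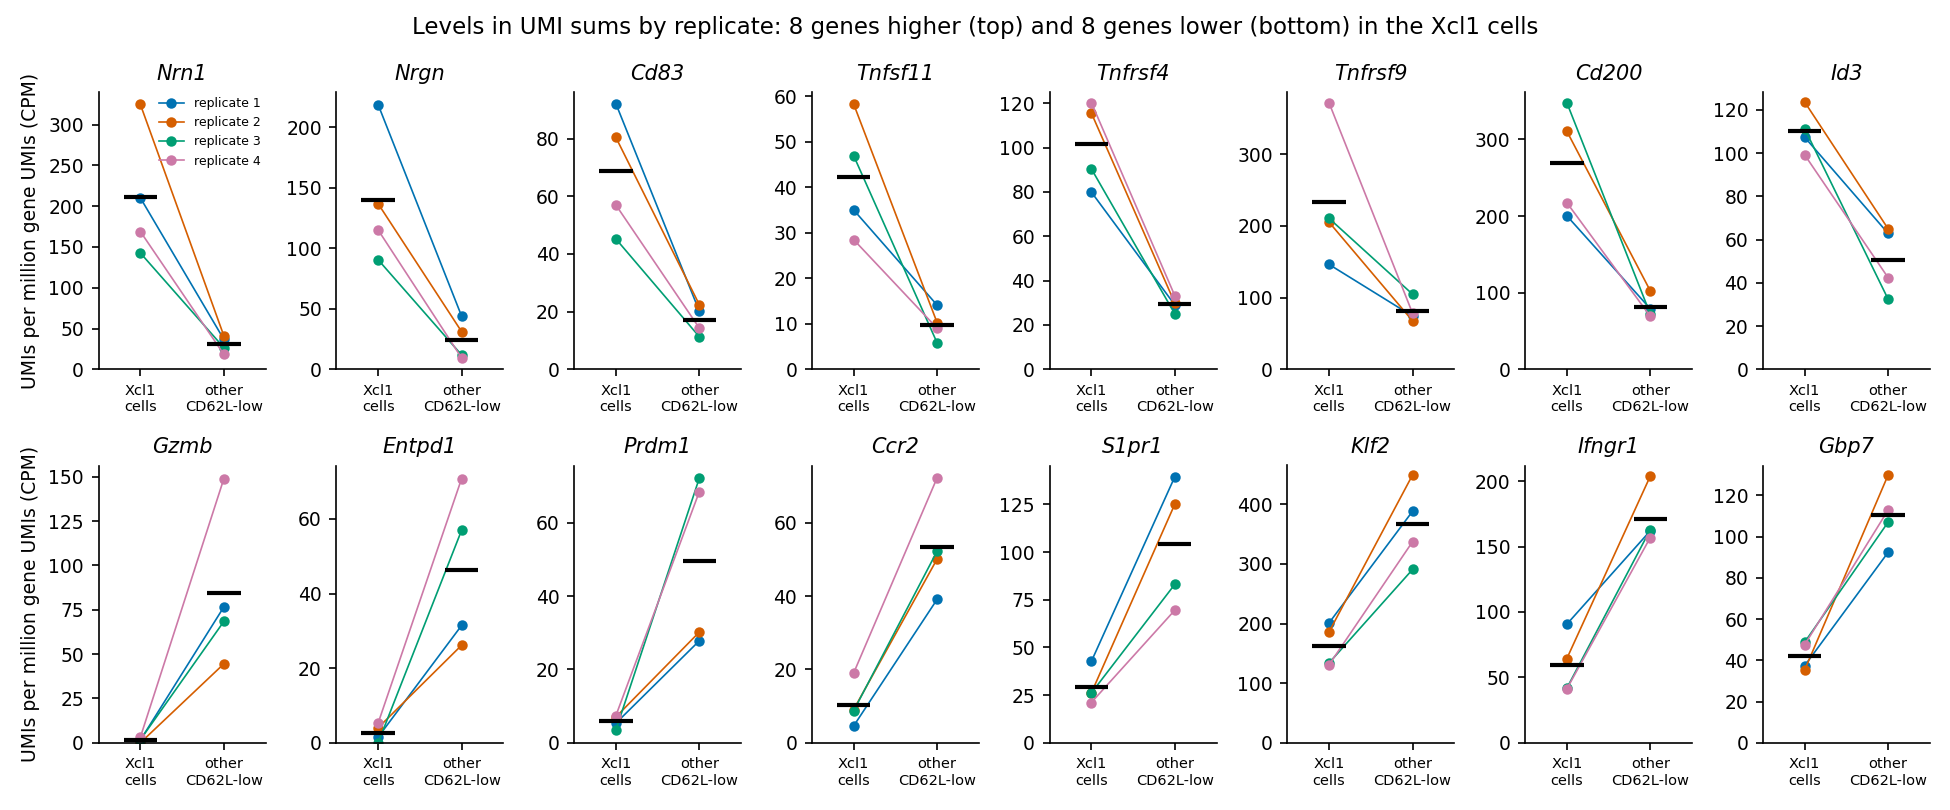
Points give CPM in each of 4 replicates for 8 genes higher (top) and 8 genes lower (bottom) in Xcl1 cells, which stand left of the other CD62L-low CD8 cells in each panel. Nrn1 lies between 143 and 325 CPM in Xcl1 cells, above 18.3 to 41.1 CPM in the others.

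Stem-like genes moved in part. Of 19 tested, 5 were higher (Id3, Bcl6, Tcf7, Slamf6, Cxcr5), 1 was lower (Lef1) and 13 did not pass, with a median log2 fold change of 0.16. Id3, an inhibitor of E-protein transcription factors, stood at 107, 124, 111 and 99.2 CPM in Xcl1 cells, against 62.9, 65, 32.5 and 42.4 CPM (log2 fold change 1.15 ± 0.16 SE, edgeR adjusted p = 0.00062). It was higher in every replicate and kept its call under all 16 alternatives. Tcf7 stood at 384, 343, 257 and 282 CPM, against 233, 295, 166 and 169 CPM (log2 fold change 0.58 ± 0.12 SE, edgeR adjusted p = 0.011). The Tcf7 populations overlapped, and the log2 fold change was 0.20 in depth-matched cells, 0.37 with 1 cell per clonotype and -0.05 without dividing cells, none of which was called, and the call was also lost without replicate 1. Slamf6 (0.64 ± 0.15) was lost without replicate 1, Cxcr5 (0.85 ± 0.23) without replicates 1, 3 or 4, and Lef1 (-1.32 ± 0.22) without replicate 4. Lef1 was also lost without the block, and among clonotypes held by both populations it stood at -0.31. Bcl6, the follicular helper factor, rose by 1.15 ± 0.23 and lost its call without the block and with 1 cell per clonotype.

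Inhibitory receptor and exhaustion genes split. Of 20 tested, 6 were higher (Cd200, Lag3, Nrp1, Nfatc1, Ikzf2, Btla), 1 was lower (Entpd1) and 13 did not pass. Cd200, the ligand of the inhibitory receptor CD200R1, stood at 200.3, 311, 348 and 217 CPM in Xcl1 cells, against 79, 102, 72.2 and 69.1 CPM (log2 fold change 1.72 ± 0.14 SE, edgeR adjusted p = 8.3e-06), with no overlap. Lag3, an inhibitory receptor for MHC class II, stood at 353, 398, 468 and 329 CPM, against 143, 199, 248 and 289 CPM (log2 fold change 0.86 ± 0.15 SE, edgeR adjusted p = 0.0044). Both kept their calls under all alternatives. Entpd1, which encodes the ATP-hydrolysing enzyme CD39 of terminally exhausted cells, stood at 1.52, 4.02, 0 and 5.28 CPM, against 31.4, 26.1, 57 and 70.8 CPM (log2 fold change -3.89 ± 0.34 SE, edgeR adjusted p = 1.1e-05). The lowest of the other cells was several times the highest Xcl1 value. Pdcd1, which encodes PD-1, had 229 ± 71.9 CPM, against 170.5 ± 13.7 CPM (log2 fold change 0.40 ± 0.18 SE), and Tox had 394 ± 117 CPM, against 303 ± 44.8 CPM (0.35 ± 0.12). Neither passed the test, nor did Tigit or Ctla4. Nrp1 (1.35 ± 0.24), Nfatc1 (0.65 ± 0.13) and Ikzf2 (0.59 ± 0.12) were lost without replicate 2, and Btla (0.85 ± 0.18) without replicate 1 or 2.

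Effector genes other than those of the rule fell in part. The rule kept cells with Gzma, Gzmk or Havcr2 UMIs out of the Xcl1 cells but not out of the other CD62L-low cells. Effector genes expressed in the same cells as these share in that choice, and its part in the falls below was not tested. Gzmb, granzyme B, stood at 1.52, 0, 1.74 and 3.17 CPM in Xcl1 cells, against 76.6, 44.5, 68.4 and 149 CPM (log2 fold change -5.70 ± 0.29 SE, edgeR adjusted p = 4.7e-08), a total of 6 UMIs in the Xcl1 cells. The fitted size of so deep a fall depends on how counts near 0 are treated. Of 14 cytotoxic granule genes 5 were lower (Gzmb, Fasl, Prf1, Nkg7, Ctsd), 1 was higher (Ctsw) and 8 did not pass, against 2.59% of all genes lower. Fasl, the death receptor ligand, stood at 6.85, 13.1, 1.74 and 21.1 CPM, against 28.6, 34.5, 49.3 and 57.1 CPM (log2 fold change -1.87 ± 0.29 SE, edgeR adjusted p = 0.002). Gzmb and Fasl were lower in every replicate without overlap. Nkg7 lost its call without replicate 2, Ctsw without replicate 1, 2 or 3 and Ctsd without any of the 4. Perforin, Prf1, had a log2 fold change of -0.98 ± 0.19 SE and lost its call without replicate 1. Klrg1, a receptor of terminally differentiated effector cells, was read as 1 UMI in all Xcl1 cells, against 210 UMIs in the other CD62L-low cells, which in CPM was 51.0 times higher in the other cells with a 95% counting interval of 9.05 to 2023 times. Klrd1 (-0.78 ± 0.17), a partner chain of NKG2 receptors, was lower too and lost its call without replicate 2, 3 or 4.

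Chemokine receptors moved both ways. Ccr2, the receptor for CCL2, stood at 4.57, 9.05, 8.70 and 19 CPM in Xcl1 cells, against 39.1, 50.1, 52.3 and 72.3 CPM in the other CD62L-low cells (log2 fold change -2.39 ± 0.22 SE, edgeR adjusted p = 1.4e-05). Cxcr6, found on tissue-resident and effector cells, had 101 ± 32.1 CPM, against 191 ± 25.4 CPM (SD, n = 4; -0.93 ± 0.15 log2 fold change with SE). Ccr9, a gut homing receptor, had 7.22 ± 4.59 CPM, against 32.4 ± 17.5 CPM (-2.14 ± 0.24, lost without the block). In the other direction Ccr8 stood at 32.8, 25.1, 38.3 and 23.2 CPM, against 6.45, 10.6, 6.02 and 5.67 CPM (log2 fold change 2.05 ± 0.26 SE, edgeR adjusted p = 0.00029), and every Xcl1 population lay above the others. Ccr6 (1.61 ± 0.33) was lost without replicate 1 or 2. Among chemokines other than Xcl1, Ccl5, an inflammatory chemokine of effector and memory T cells, stood at 1182, 1727, 3262 and 1486 CPM, against 2908, 5237, 6937 and 8198 CPM (log2 fold change -1.60 ± 0.22 SE, edgeR adjusted p = 0.013), and lost its call without replicate 2, while Ccl3, Ccl4 and Cxcl10 did not pass.

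Genes of T cell recirculation, a list that covers leaving tissue, adhesion and homing, were low in part. Of 11 tested, 7 were lower and 0 higher, against 2.59% of all genes lower, with a median log2 fold change of -0.80. Ccr7, Itga4, Itgb1 and Cmah did not pass the test. S1pr1, the receptor for the lipid that draws T cells out of tissue, stood at 42.7, 26.1, 26.1 and 21.1 CPM in Xcl1 cells, against 139, 125, 83.1 and 69.5 CPM (log2 fold change -1.84 ± 0.16 SE, edgeR adjusted p = 8.6e-06). Klf2, the transcription factor that drives S1pr1, stood at 201, 186, 134 and 131 CPM, against 388, 449, 291 and 337 CPM (log2 fold change -1.17 ± 0.12 SE, edgeR adjusted p = 3.3e-05). The highest Xcl1 value was below the lowest of the other cells in both genes. Rasgrp2 (-1.35 ± 0.16), an activator of integrin-controlling Rap1, Klf3 (-1.24 ± 0.18), Itgb7 (-0.80 ± 0.14), Selplg (-0.75 ± 0.13) and S1pr4 (-0.80 ± 0.15, lost without replicate 2) made up the rest. Of 11 naive cell genes 5 were lower and 1, Tcf7, higher. Igfbp4, an insulin-like growth factor binding protein abundant in naive T cells, stood at 4.57, 6.03, 5.22 and 6.33 CPM, against 108, 84, 26.5 and 34.2 CPM (log2 fold change -3.60 ± 0.30 SE, edgeR adjusted p = 8.2e-06), and Sema4a, a semaphorin, had 21.1 ± 2.86 CPM, against 70.9 ± 4.66 CPM (-1.74 ± 0.16).

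Residence and lineage factors moved both ways. Prdm1, which encodes Blimp-1, a factor of effector and tissue-resident cells, stood at 5.33, 7.04, 3.48 and 7.39 CPM in Xcl1 cells, against 27.8, 30.2, 72.2 and 68.5 CPM (log2 fold change -2.88 ± 0.27 SE, edgeR adjusted p = 1.7e-05). Id2, the effector counterpart of Id3, stood at 119.6, 106, 130.5 and 155 CPM, against 189, 197, 200.01 and 251 CPM (log2 fold change -0.71 ± 0.12 SE, edgeR adjusted p = 0.0024). Each was below the other cells in 4 of 4 replicates. Of 21 lineage factors 5 rose (Ikzf2, Bcl6, Stat4, Irf8, Irf4) and 5 fell (Prdm1, Id2, Runx2, Hopx, Runx3), and of 14 residence genes 1 rose (Itgae) and 4 fell (Prdm1, Cxcr6, Rgs1, Runx3). Stat4 lost its call without replicate 1 or 2, Itgae without 1 or 4, Runx2 without 2 or 4, Runx3 and Hopx without 1, 2 or 4, and Rgs1 without 3 or 4. Hopx turned to a log2 fold change of 0.08 among clonotypes held by both populations. Tbx21, Zeb2, Batf and Tox did not pass.

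Interferon response genes were lower as a group. Of 17 tested, 10 were lower and 0 higher, with a median log2 fold change of -0.83, against 2.59% of all genes lower. Gbp7, an interferon-induced guanylate-binding protein, stood at 37.3, 35.2, 48.7 and 47.5 CPM in Xcl1 cells, against 92.3, 129.8, 107 and 113 CPM (log2 fold change -1.39 ± 0.15 SE, edgeR adjusted p = 7.5e-05). Ifngr1, a chain of the interferon gamma receptor, stood at 90.6, 64.4, 41.8 and 41.2 CPM, against 162, 204, 163 and 157 CPM (log2 fold change -1.52 ± 0.18 SE, edgeR adjusted p = 0.00015), and lost its call in depth-matched cells at the same direction. Gbp7 and Ifngr1 were lower in all replicates without overlap. Ifit1 (-2.97 ± 0.51), Ifit3 (-2.30 ± 0.41), Zbp1 (-0.92 ± 0.15) and Tgtp1 (-2.27 ± 0.23), another interferon-induced GTPase, fell too. Irf7, Gbp4, Igtp, Ifi203, Rtp4 and Usp18 lost their calls without replicate 2, Gbp4, Igtp and Usp18 also without replicate 1 and Usp18 without replicate 3, and Igtp was at 0.13 among shared clonotypes.

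Few division and stress genes passed the test against the other CD62L-low cells. Of 23 proliferation genes 0 passed the adjusted test in edgeR and 0 in DESeq2, 3 had an unadjusted edgeR p under 0.05, and the median log2 fold change was -0.31. Mki67, a marker of dividing cells, stood at 447, 327, 320.1 and 336 CPM, against 441, 406, 701 and 596 CPM (log2 fold change -0.55 ± 0.16 SE, edgeR adjusted p = 0.075), and the populations overlapped. Of 15 genes induced by tissue dissociation 2 were lower (Dnajb1, Hspa1a), and of 14 glycolysis genes 1 was higher (Pgam1) and 1 lower (Pfkp). All 4 of these calls were lost under 10 or 11 of 16 alternatives.

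Processing ended further calls of genes named against the other CD62L-low cells. Without the block they were Lef1, Ccl5, Lta, Il2ra, Icos, Rgs1, Ikzf2, Bcl2a1b, Bcl2a1d, Cd2, Ctsw, Cxcr5, Egr3, Hopx, Ifi203, Igtp, Il6ra, Irf7, Irf8, Itgae, Itgb7, Nkg7, Nrp1, Runx2, Runx3, Slamf1, Slamf6, Stat4, Tcf7, Tnfsf8 and Usp18. With 1 cell per clonotype they were Lta, Tnfsf14, Icos, Rel, Rgs1, Btla, Cd2, Ctsw, Cxcr5, Irf8, Itgae, Nfkbia, Nrp1, Runx2, Runx3, Slamf1, Slamf6, Stat4 and Tnfsf8. Among clonotypes held by both populations, which leaves fewer cells, they were Lef1, Prf1, Ccl5, Il2ra, Ikzf2, Zbp1, Cd2, Ctsd, Egr2, Gbp4, Hopx, Ifi203, Igtp, Irf4, Irf7, Irf8, Itgae, Itgb7, Klf3, Runx2, Runx3, S1pr4 and Slamf1. In depth-matched cells Bcl2a1b, Rgs1, Cd2, Ctsd, Il6ra, Runx2 and Slamf1 were lost, and with DESeq2 Icos, Btla, Cd2, Cxcr5, Egr3, Hopx, Il6ra, Rtp4, Runx2, Slamf1 and Usp18.

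**Figure D4:**
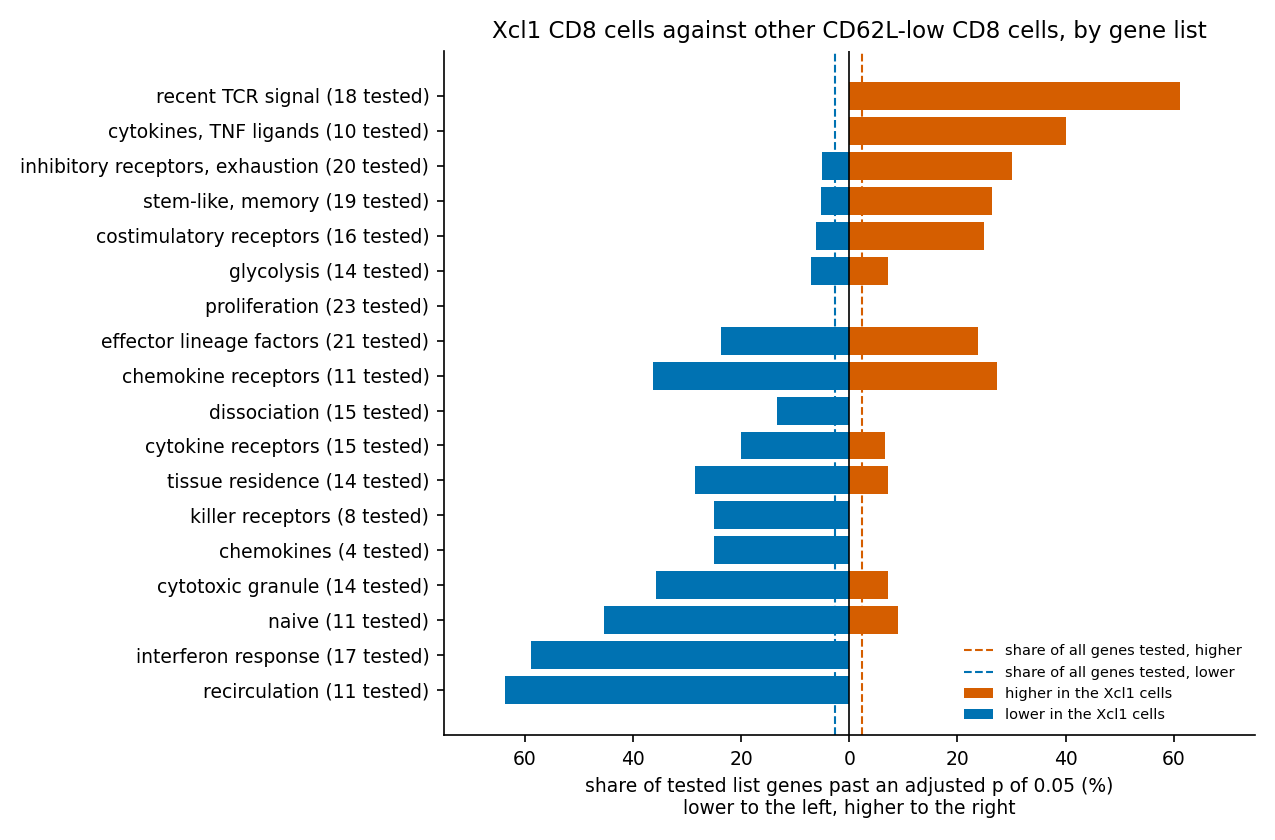
Horizontal bars give, for each gene list, the percentage of tested genes that were higher (to the right) or lower (to the left) in Xcl1 cells than in the other CD62L-low CD8 cells at an adjusted p under 0.05, with dashed lines at the shares of all 9365 genes, 2.41% and 2.59%. Receptor signal genes reach farthest to the right (11 of 18), and recirculation (7 of 11) and interferon genes (10 of 17) farthest to the left.

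Shares of cells with a UMI were compared as the share expected after thinning each cell to 1000 gene UMIs, with B cell barcodes (at least 3 UMIs of B cell markers, no CD3 UMI and no TRB chain) of the same libraries beside them. Median depths were 7284.5 UMIs in Xcl1 cells, 4172 in the other CD62L-low cells and 3675.5 in B cell barcodes, and 2, 201 and 34 shallower cells were left out. Lag3 was found in 31.4, 36.5, 33.1 and 35.7% of thinned Xcl1 cells of replicates 1 to 4, against 11.3, 14.3, 21.6 and 25.2% of the other CD62L-low cells. Tnfrsf9 was found in 12.9, 14.3, 14.0 and 24.1%, against 2.16, 3.36, 6.72 and 5.64%. In both genes every Xcl1 share was above every other share, and B cell barcodes had 0.0901% for Lag3 and 0.0707% for Tnfrsf9 over all libraries.

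Pdcd1, whose CPM level did not pass the test, was found in 23.4, 25.7, 18.2 and 15.1% of thinned Xcl1 cells, against 9.06, 9.97, 14.1 and 14.8%. Tcf7 was found in 28.8, 29.6, 25.1 and 22.2%, against 24.1, 26.6, 20.8 and 18.7%, a small difference with overlap between replicates. B cell barcodes had 0.00945% for Pdcd1 and 0.217% for Tcf7. Ccl5 was found in 38.7, 41.5, 56.1 and 41.5% of thinned Xcl1 cells, against 30.01, 45.9, 74.2 and 70.05%, so that Xcl1 cells were higher in replicate 1 and lower in the other three, and B cell barcodes had 1.26%. Over all libraries and without thinning, the shares in Xcl1 cells, other CD62L-low cells and B cell barcodes were 77.2, 42.6 and 0.611% for Lag3, 46.8, 17.3 and 0.175% for Tnfrsf9, 62.6, 34.2 and 0.175% for Pdcd1, 75.5, 49.1 and 1.13% for Tcf7, and 63.4, 68.5 and 4.10% for Ccl5. Without thinning Ccl5 was higher in Xcl1 cells in replicates 1 and 2. B cell barcodes are no background for genes that B cells express: thinned shares in the same order were 22.4, 15.0 and 24.1% for Slamf6, 10.1, 4.72 and 8.36% for Id3, and 20.2, 6.40 and 8.91% for Cd200.

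Markers of other cell types were counted in the same sums, and their part in the results was not tested. Natural killer cell markers summed to 23.6, 20.1, 19.1 and 59.1 CPM in Xcl1 cells, against 25, 18.1, 51.3 and 31.1 CPM, and the defining genes Klrb1c and Gata2 were at 0 in both populations and Sh2d1b1 in Xcl1 cells. Ncr1, which encodes the natural killer receptor NKp46, stood at 6.09, 5.03, 0 and 0 CPM in Xcl1 cells (13 UMIs), against 3.22, 0, 0.376 and 0 CPM (10 UMIs), and Klra8 at 0, 0, 10.4 and 1.06 CPM (7 UMIs), against 0, 0, 0.188 and 0 CPM (1 UMI). Dendritic cell markers summed to 8.38, 11.1, 40.01 and 58.1 CPM, against 15.3, 18.4, 39.5 and 24.4 CPM, with Xcr1, Clec9a and Flt3 at 0 in Xcl1 cells. Myeloid markers summed to 131, 136, 137 and 385 CPM, against 138, 149.7, 332 and 225 CPM, and islet hormone genes to 3.81, 5.03, 167 and 26.4 CPM, against 4.84, 17.7, 701 and 9.24 CPM. The last were highest in replicate 3 in both populations. CD4 and regulatory T cell markers were the only such list with calls, 2 higher of 3 tested (Izumo1r and Il2ra), and summed to 206, 186, 169 and 167 CPM, against 85.1, 86.5, 87.4 and 69.1 CPM. Foxp3, the defining gene of regulatory T cells, stood at 2.28, 0, 0 and 2.11 CPM in Xcl1 cells (5 UMIs), against 0.403, 1.56, 2.44 and 1.05 CPM (24 UMIs). Zbtb7b, a factor of CD4 cells, stood at 0.762, 1.01, 5.22 and 2.11 CPM, against 2.82, 1.56, 2.63 and 1.26 CPM. Cd40lg, the CD40 ligand of helper T cells, stood at 1.52, 3.02, 5.22 and 7.39 CPM, against 0, 0.622, 3.38 and 3.57 CPM, higher in Xcl1 cells in each replicate, and was under the filter on low counts.

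The Xcl1 cells were next set against 3 narrower populations of CD8 cells from the same libraries. These comparisons share the Xcl1 cells, and their populations overlap with each other and with the other CD62L-low cells, so their values stand side by side and are not independent. The first were 1086 cells with at least 2 UMIs of Gzma and Gzmk, in numbers of 121, 155, 454 and 356. The second were 332 cells with Havcr2, in numbers of 29, 37, 142 and 124. The third were 1160 CD62L-low cells with under 2 Xcl1 UMIs and none of Havcr2, Gzma and Gzmk, called Xcl1-low cells below, in numbers of 249, 281, 330 and 300. Xcl1 cells that also held Havcr2 but no Gzma or Gzmk numbered 12 in all and were not compared.

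Against the Gzma and Gzmk cells, the Xcl1 cells had more mRNA of stem-like genes and less of division genes. Of 8853 genes tested, 474 were higher (5.35%) and 694 lower (7.84%; edgeR, 13.2% in either direction), and 674 in all were called without replicate 2. Of 19 stem-like genes 10 were higher and 0 lower, and of 23 proliferation genes 0 were higher and 20 lower. Tcf7 stood at 384, 343, 257 and 282 CPM in Xcl1 cells, against 163, 225, 112 and 125 CPM in Gzma and Gzmk cells (log2 fold change 1.05 ± 0.12 SE, edgeR adjusted p = 3.4e-05). Ccr7 stood at 119, 152, 78.3 and 129.9 CPM, against 43.7, 33.4, 29.6 and 20.2 CPM (log2 fold change 1.94 ± 0.20 SE, edgeR adjusted p = 5.1e-05). The lowest Xcl1 value was above all 4 Gzma and Gzmk values in both genes, but Tcf7 was at 0.15 and not called without dividing cells. Tnfsf8, the CD30 ligand, had 57 ± 15 CPM, against 4.74 ± 2.03 CPM (SD, n = 4; 3.65 ± 0.27 log2 fold change with SE), and Nrn1 had 212 ± 80.4 CPM, against 15.7 ± 7.26 CPM (3.77 ± 0.14). Mki67 stood at 447, 327, 320.1 and 336 CPM, against 701, 653, 837 and 756 CPM (log2 fold change -1.04 ± 0.11 SE, edgeR adjusted p = 2.1e-05), and lost its call in depth-matched cells. Of 14 cytotoxic genes 7 were lower and 1 higher, led by Gzmb (-6.39 ± 0.27), and Entpd1 (-4.28 ± 0.32), Prdm1 (-3.20 ± 0.25) and Ccr2 (-3.05 ± 0.24) fell too. The Gzma and Gzmk cells were chosen for UMIs that the rule kept out of Xcl1 cells. Genes expressed together with Gzma and Gzmk share in that choice, and its part in these rises and falls was not tested. In clones that held both kinds of cell 541 genes were called.

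Against the Havcr2 cells, most stem-like genes were higher in Xcl1 cells and most division genes lower. Of 8143 genes tested, 491 were higher (6.03%) and 563 lower (6.91%; edgeR, 12.9% in either direction), 683 in all without replicate 1 and 557 without replicate 2. Of 19 stem-like genes 12 were higher and 0 lower, with a median log2 fold change of 1.36. Tcf7 stood at 384, 343, 257 and 282 CPM in Xcl1 cells, against 25.8, 12.6, 18.1 and 9.72 CPM in Havcr2 cells (log2 fold change 4.26 ± 0.21 SE, edgeR adjusted p = 1.1e-09). Id3 stood at 107, 124, 111 and 99.2 CPM, against 2.15, 1.80, 5.32 and 5.23 CPM (log2 fold change 4.62 ± 0.27 SE, edgeR adjusted p = 1.2e-08). Slamf6, a SLAM family receptor of precursor cells, stood at 227, 215, 287 and 157 CPM, against 34.4, 59.3, 51.8 and 56.1 CPM (log2 fold change 2.12 ± 0.20 SE, edgeR adjusted p = 2.8e-06). In each the populations were far apart in every replicate. Havcr2 cells had medians of 16619, 9935, 14238 and 7613.5 gene UMIs, against 8983, 5828.5, 5570 and 8170 in Xcl1 cells. Fits in depth-matched cells, without dividing cells and with 1 cell per clonotype were not run here, because each left under 20 cells in a library. How far these differences depend on depth, division or clone size was therefore not tested. Pdcd1 (229 CPM, against 274 CPM on average) and Tox (394 against 319.6 CPM) did not pass the test, with log2 fold changes of -0.24 ± 0.15 and 0.29 ± 0.17 SE. Of 23 proliferation genes 20 were lower and of 13 cytotoxic genes 7 were lower, and Entpd1 stood at 2.71 CPM, against 104 CPM (-5.14 ± 0.32). The Havcr2 cells too were chosen for UMIs that the rule kept out of Xcl1 cells, and the part of that choice in these differences was not tested. The MHC class II gene H2-Eb1 was among the 5 deepest falls (-3.46 ± 0.58), but its values overlapped and it lost the call without replicate 1, 3 or 4.

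Against the Xcl1-low cells, most stem-like genes were lower in Xcl1 cells. Of 8262 genes tested, 1136 were higher (13.7%) and 1057 lower (12.8%; edgeR, 26.5% in either direction). The Xcl1-low cells were shallow, with medians of 4191, 4459, 1301 and 1977.5 gene UMIs, and 5.22, 7.12, 58.8 and 44.0% of them had a CD11a count under 20. In depth-matched cells 663 genes were called, and 1235 without replicate 2. Of 19 stem-like genes 4 were higher (Cxcr5, Myb, Id3, Bcl6) and 11 lower, with Id3 and Bcl6 lost without replicate 2 or 3 and, like Cxcr5, with DESeq2, and of 11 naive genes 0 were higher and 9 lower. Tcf7 had 317 ± 57.5 CPM in Xcl1 cells, against 377 ± 34.5 CPM in Xcl1-low cells (-0.29 ± 0.13 log2 fold change with SE, not called), and Lef1 stood at 136, 84.5, 134 and 59.1 CPM, against 692, 647, 555 and 513 CPM (log2 fold change -2.64 ± 0.16 SE, edgeR adjusted p = 4.1e-08). All 4 Lef1 values of the Xcl1 cells lay below all 4 of the Xcl1-low cells. Il7r, the interleukin 7 receptor of long-lived T cells, stood at 72.4, 52.3, 81.8 and 51.7 CPM, against 288, 280.1, 197 and 255 CPM (log2 fold change -2.06 ± 0.17 SE, edgeR adjusted p = 5.8e-07).

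Receptor signal, inhibitory receptor and division genes were higher in that comparison. Of 17 receptor signal genes 12 were higher and 0 lower, of 16 inhibitory and exhaustion genes 10 were higher and 0 lower, and of 23 proliferation genes 22 were higher. Pdcd1 stood at 286, 291, 198 and 143 CPM in Xcl1 cells, against 75.4, 82.6, 73 and 106 CPM in Xcl1-low cells (log2 fold change 1.39 ± 0.21 SE, edgeR adjusted p = 0.00058). Tox, a transcription factor needed by exhausted and chronically stimulated T cells, stood at 293, 424, 546 and 312 CPM, against 178, 160.1, 258 and 226 CPM (log2 fold change 0.88 ± 0.14 SE, edgeR adjusted p = 0.00019). Both were higher in every replicate. Tnfrsf9 had 233 ± 96.6 CPM, against 28.6 ± 21 CPM (SD, n = 4; 3.05 ± 0.37), and Nrgn 140.2 ± 55.6 CPM, against 6.90 ± 1.76 CPM (4.30 ± 0.21). Mki67 had 357 ± 60.1 CPM, against 149 ± 47.6 CPM (1.27 ± 0.16), but in depth-matched cells its log2 fold change was -0.91. All 13 interferon genes tested were lower in Xcl1 cells. Eomes and Klrc1 are the label markers that were not higher in CPM against the other CD62L-low cells. Both were above the Xcl1-low cells in each replicate, where they ranged from 35.7 to 159 CPM and from 27.8 to 98.5 CPM.

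**Figure D5:**
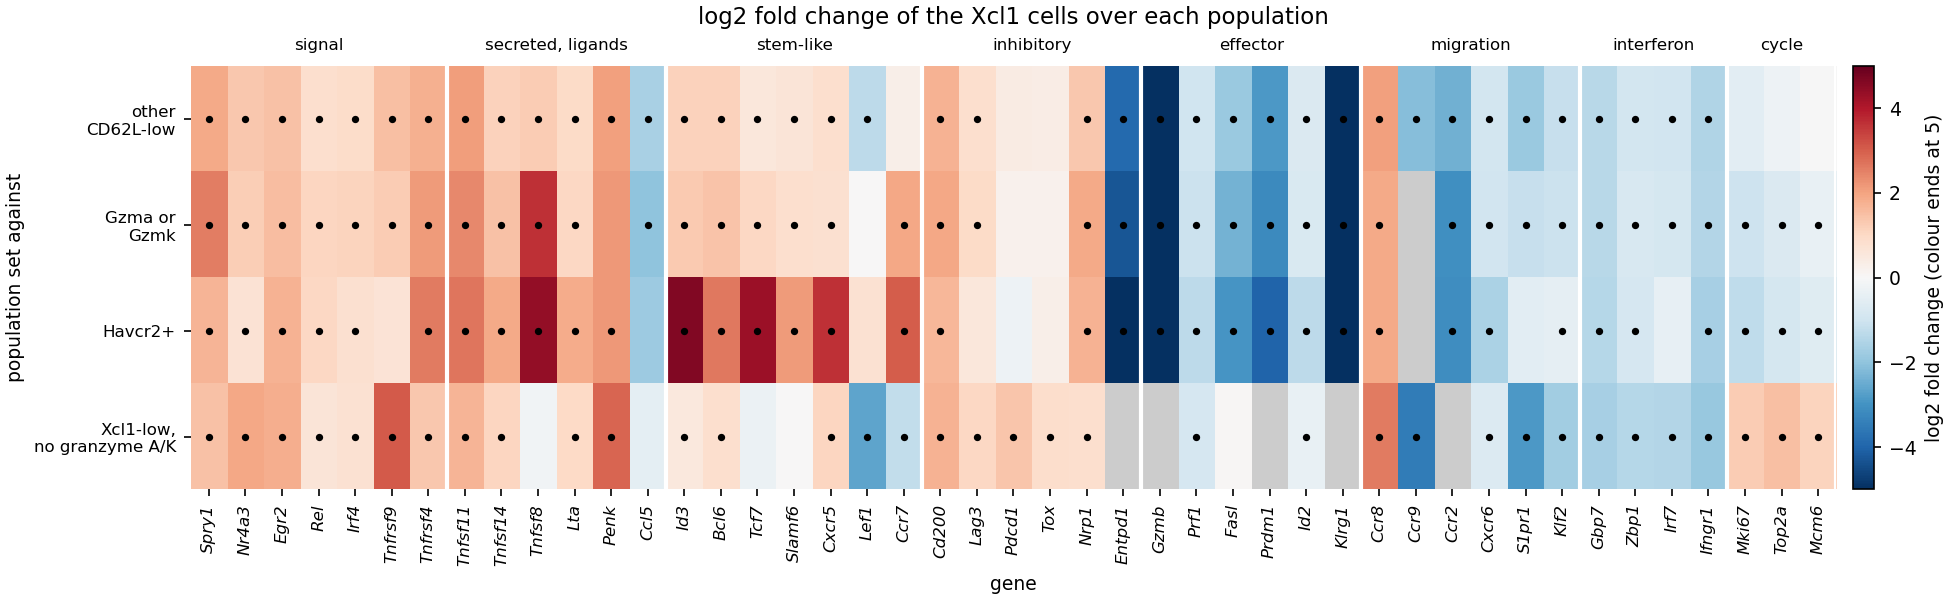
Colours give the log2 fold change of Xcl1 cells over each of 4 populations (down the page: other CD62L-low, Gzma and Gzmk, Havcr2 and Xcl1-low cells) for 45 genes, which run along the horizontal axis; dots mark an adjusted p under 0.05, grey marks genes not tested there, and the colour scale ends at 5. Tcf7 and Id3 reach 4.26 and 4.62 against the Havcr2 cells, and Cd200 and Tnfrsf4 are higher against all 4 populations, Tnfrsf4 without a call against Xcl1-low cells in depth-matched cells (1.27).

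Placed in order of mean level, Tcf7 in Xcl1 cells, at 317 CPM, came after 377 CPM in Xcl1-low cells and before 216 in the other CD62L-low cells, 156 in Gzma and Gzmk cells and 16.6 in Havcr2 cells, and the difference from Xcl1-low cells did not pass the test. Pdcd1 in Xcl1 cells, at 229 CPM, came after 274 CPM in Havcr2 cells and before 192 in Gzma and Gzmk cells, 170.5 in the other CD62L-low cells and 84.2 in Xcl1-low cells, and passed the test against the last alone. Entpd1 stood at 2.71 CPM in Xcl1 cells, against 46.3, 58 and 104 CPM in the other CD62L-low, Gzma and Gzmk, and Havcr2 cells. Each of these populations holds cells with Gzma, Gzmk or Havcr2 UMIs, which the rule kept out of the Xcl1 cells. The part of that choice in the difference was not tested. No Entpd1 level is given for Xcl1-low cells, which lack those UMIs too, so low Entpd1 is not shown to be particular to Xcl1 cells.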

How the data were processed

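The authors' deposited matrices give mRNA and antibody counts (UMIs) per barcode, made with Cell Ranger 4.0.0 per the file headers; mm10 and Seurat are named in the submitters' processing notes. Receptor contigs came as separate tables per library, and the antibody libraries were read through the joint matrices.

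UMIs were summed per population and library and tested with edgeR 4.0.16 in R 4.3.3 (filterByExpr, TMM scaling, quasi-likelihood test, Benjamini-Hochberg adjustment), with the library as a block. Summed populations of 1 library come from the same animal or pool, and the correlations of their deviations were 0.36, 0.26, 0.01 and 0.57 in the main comparison over 2000 genes. Single values were tested by an exact two-sided sign-flip permutation over 4 libraries. Populations needed at least 20 cells in each library. No doublet caller was run, and 1 alternative kept cells with exactly 1 TRB chain; 8.74, 3.33, 1.59 and 10.0% of Xcl1 cells with a TRB chain had more than 1, against 3.34, 3.01, 6.44 and 4.75% of the other CD62L-low cells. DESeq2 1.42.0, numpy 2.4.6, scipy 1.17.1 and pandas 2.3.3 were also used.

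On simulated data of 9379 genes, with gene means and library sizes taken from the main comparison, 91.9% of genes changed by 1 log2 unit were recovered. Of those changed by 2 it was 100.0%, and 10 unchanged genes were called. The simulation gave all genes the same dispersion, held no effect of replicate and changed only genes above 20 CPM. It does not give the recovery in the real data. Xcl1 cells, lists and tests were chosen with earlier results of these data known. Named genes were the 10 largest rises and 10 largest falls (5 each in the other comparisons) among called genes with the same direction in 4 of 4 libraries and at least 20 CPM, without receptor, immunoglobulin, model, ribosomal and mitochondrial genes, and up to 3 genes per list by p. Other called list genes, and Pdcd1, Tox, Tigit, Ccr7, Il7r and further uncalled list genes, were named after their values were seen. 1 gene within the rule is not reported here. Alternatives changed the scaling, filter, tool, block, depth, CD11a count, receptor chains, clonotypes, Xcl1 and CD62L thresholds, dividing cells and replicates.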

Additional observations from a re-analysis of the deposited data

Results flagged for a closer look

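Of 68 sets of 4 replicate values examined, 5 had 1 replicate far from the other 3, where chance gives about 1 in 20. The median CD11a antibody count of Xcl1 cells was 411 in replicate 1, against 339.5 to 351 in the other replicates. The log2 difference between Xcl1 cells and the other CD62L-low cells was 1.44 in replicate 1 for Tnfrsf4, against 1.83 to 1.90. Replicate 2 held the other three values, with a log2 difference of -2.25 for S1pr1 (others -1.69 to -1.63), -0.92 for Id2 (others -0.66 to -0.61) and -1.34 for Zbp1 (others -0.82 to -0.74). All 4 log2 differences had the sign seen in the other replicates.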

How the results depend on the processing

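Against the other CD62L-low cells, where 469 genes were called, 224 were called without the replicate block, 916 without the filter on low counts (35.4% of them higher, against 48.2%), 276 with the DESeq2 Wald test and 1059 without dividing cells, 375 of which were called with them too. Leaving out 1 replicate gave 206 to 529 genes there, 674 to 931 of 1168 against Gzma and Gzmk cells, 1235 to 1987 of 2193 against Xcl1-low cells and 557 to 1053 of 1054 against Havcr2 cells. DESeq2 called 614, 1022 and 545 in these 3. Against Gzma and Gzmk cells 519 were called with 1 cell per clonotype and 541 in clonotypes with both kinds of cell; against Xcl1-low cells 663 in depth-matched cells and 1278 without dividing cells. In depth-matched cells the log2 ratio of CD11a was 0.48 and of UMIs 0.22, and the CD8b difference was 0.70 points. Xcl1 cells were 12.3% of the CD62L-low CD8 cells. Without 1 replicate the ranges were 7.91 to 17.5 points for expanded clones, 0.99 to 1.42 for CD11a, 9.55 to 16.2 points for CD8b, 0.64 to 0.93 for depth and 7.08 to 9.71% for the share of Xcl1 cells.

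Signs reversed in 17 cases, and the cause was not tested. Against the other CD62L-low cells these were Ccl4 (0.16), Klre1 (0.23) and Tcf7 (-0.053) without dividing cells, Mki67 (0.023), Hmgb2 (0.22) and Cdk1 (0.15) with 1 cell per clonotype, and Tpi1 (-0.11), Hopx (0.076) and Igtp (0.13) in clonotypes of both populations. Against Gzma and Gzmk cells they were Hopx (0.33) and Ifi203 (0.062) in clonotypes of both. Against Xcl1-low cells they were Mki67 (-0.91), Hmgb2 (-0.012), Cd2 (0.17) and Itgae (8.9e-05) in depth-matched cells, and Hmgb2 (-0.037) and Itgae (0.070) without dividing cells. Of the named genes called, 27 of 51, 30 of 50, 26 of 46 and 34 of 45 kept their call under all alternatives run for them, against the other CD62L-low, Gzma and Gzmk, Xcl1-low and Havcr2 cells. An alternative without any cell with 2 proliferation UMIs, the comparison with Xcl1 cells holding Havcr2, and 3 alternatives for the Havcr2 cells were not run because under 20 cells were left in a library. Depth limits what a count of 0 shows: cells without a Havcr2, Gzma or Gzmk UMI may express the gene.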
